A study of Rattus norvegicus with 12 samples.

Results

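Transcripts of cell cycle and DNA replication genes were followed on 12 whole-transcript arrays of cultured rat astrocytes. The 44 genes are a fixed list that spans replication licensing, nucleotide supply, the entry into S phase, mitotic kinases and the spindle. Of these, 40 had a row of the deposited table paired with that gene alone, out of 18166 genes tested. The other 4, Rrm1, Tk1, Birc5 and Ccnd3, had no such row and were not analysed here. The cultures were primary cortical astrocytes of 1-day-old Sprague-Dawley rats. They were kept without serum for 2 days, a step meant to remove microglia and meningeal cells. All cells were transfected with an siRNA and no group was left untransfected. There were 4 groups of 3 arrays. Cells with control siRNA received no further agent in the first group (siCon), interferon-γ in the next (siCon_IFNg), and interferon-γ plus a compound that the labels call only GW in the third (siCon_IFNg_GW). Cells of the last group received the same interferon-γ and GW after siRNA against SHP (siSHP_IFNg_GW). Agents were present for 3 h. SHP is the small heterodimer partner, a nuclear receptor without a DNA-binding domain that is encoded by Nr0b2. Each sample title carries a number from 1 to 3, and each number occurs once in every group. What the number stands for is not stated, and no label says that arrays of a group came from separate cultures, so the p-values measure only how far these arrays scatter, which can be technical. The series text adds that 4 arrays were taken over from an earlier series, without saying which.

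A cell prepares to copy its DNA by loading the Mcm2 to Mcm7 helicase onto origins with Cdc6 and Cdt1. Cyclin E and cyclin A kinases then fire these origins, and Pcna clamps the polymerases onto the template. Cyclin B with Cdk1 drives entry into mitosis, Bub1 and Bub1b guard chromosome attachment, and Cdc20 activates the ligase that ends mitosis. E2F factors switch on the S phase genes, and a repressor complex of pocket proteins shuts both sets when cells leave the cycle. Astrocytes of the newborn cortex still divide and continue to do so in primary culture.

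Promoters are shown for 4 genes, whose windows carry sequence elements known to time cell cycle genes. Most cell cycle genes moved together between arrays, and Cdca7 is shown although it did not. The sequences are from RefSeq on assembly GRCr8 and run 5′ to 3′ over the 150 bases before the transcription start. Capitals mark matches to an E2F element (TTTCCCGC, TTTGGCGC, TTTCGCGC or TTTGCCGC), a CCAAT box (CCAAT) or a CHR, the cell cycle genes homology region (TTTGAA or TTCGAA), on either strand. Cdk1, the mitotic kinase, lies at chr20:19265143-19265292 on the plus strand. Cdc20, the activator of the anaphase-promoting complex, lies at chr5:137255800-137255949 on the minus strand. Mcm6, a helicase subunit, lies at chr13:42404353-42404502 on the minus strand. Cdca7, an E2F- and MYC-responsive gene whose product takes part in DNA methylation maintenance, lies at chr3:77730165-77730314 on the plus strand.
Cdk1: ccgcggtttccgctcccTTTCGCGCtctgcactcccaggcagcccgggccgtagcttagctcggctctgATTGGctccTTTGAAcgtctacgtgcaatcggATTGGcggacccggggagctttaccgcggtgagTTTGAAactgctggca
Cdc20: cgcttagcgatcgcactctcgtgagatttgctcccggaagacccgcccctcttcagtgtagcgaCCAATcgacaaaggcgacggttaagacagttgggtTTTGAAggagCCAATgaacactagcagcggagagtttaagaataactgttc
Mcm6: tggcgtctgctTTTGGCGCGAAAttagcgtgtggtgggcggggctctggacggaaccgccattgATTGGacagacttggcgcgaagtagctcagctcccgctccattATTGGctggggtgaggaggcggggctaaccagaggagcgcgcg
Cdca7: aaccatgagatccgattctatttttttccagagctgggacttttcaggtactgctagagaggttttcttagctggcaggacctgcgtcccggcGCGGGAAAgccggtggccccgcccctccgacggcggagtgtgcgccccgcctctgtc

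The Cdk1 window held all 3 kinds of element, with 2 CHR and 2 CCAAT matches. The Cdc20 window held a CHR flanked by CCAAT boxes and no E2F match. The Mcm6 window held a pair of E2F matches that overlap on opposite strands, and the Cdca7 window held a single E2F match. A CHR match of Cdca7 starts 164 bases before the start, outside the window shown. Promoters were given for 29 of the 40 genes. In the 250 bases before the start, 8 of 29 (27.6%) held an E2F element, against 1.91% of the 27457 genes with a promoter sequence. Uhrf1, which had several promoters, was counted by E2F matches in promoter 3. A CCAAT box was present in 21 of 29 (72.4%, against 36.1%) and a CHR in 10 of 29 (34.5%, against 18.5%). E2F elements were in 4 of 10 licensing and fork genes and in 0 of 6 spindle and chromosome genes. CHR elements were in 2 of 10 and 3 of 6 of them. E2F matches on opposite strands can overlap, as they do in Mcm6, and a match is a description of these windows only.

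Nearly all of the cell cycle genes were above background. Their mean levels ran from 5.78 (Cdca7) to 10.23 (Ccnd2) on the deposited log2 scale, against a median of 6.55 over all genes. Background was taken as 5.34, the 95th percentile of 1344 olfactory and vomeronasal receptor genes. On all 12 arrays 37 of the 40 genes lay above it, and only 5 of 480 values lay below. These came from Cdc6, Cdca7 and Cdca8. With bulk RNA, fewer cells of a type and less RNA per cell cannot be told apart.

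Set against the other 8 arrays, the 4 arrays numbered 1 were lower for nearly the whole list in each treatment group. In a limma fit on treatment group and title number, 39 of 40 genes were lower in number 1 at an adjusted p under 0.05 over all genes. The same was true of 17.2% of all genes tested. The median difference was -0.80 on the log2 scale for the list and 0.03 for all genes. For 36 of the 40 genes every array numbered 1 lay below every other array, as for 9.84% of all genes. The exceptions were Ccnd1, Aurka, Gins2 and Cdca7. Number 1 was lower in all 4 groups for 39 genes, and the share of all genes for which this held is not given here. That arrays numbered 1 differ from the rest was known from earlier results of these data, cell cycle genes included. The size and the members of the difference are given here.

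**Figure D1:**
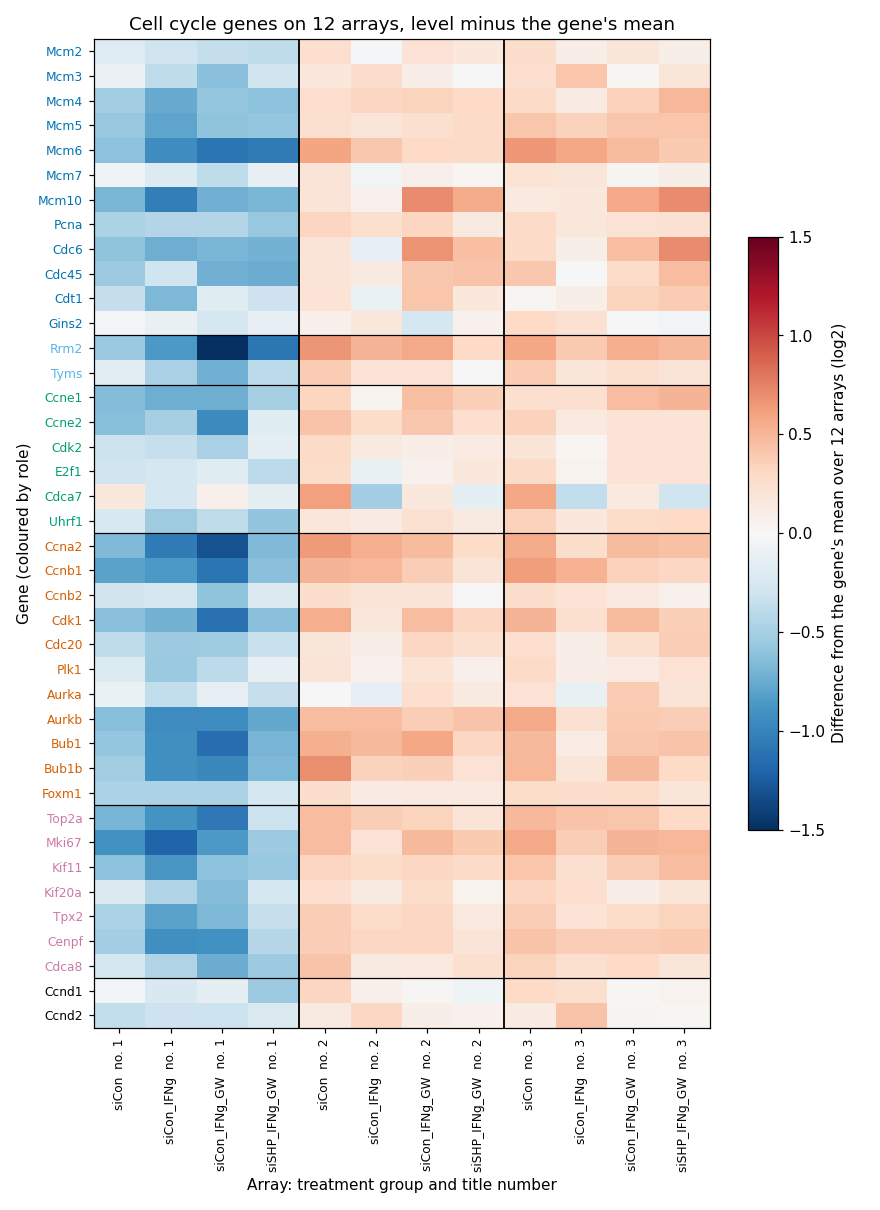
Level of each of the 40 cell cycle genes on each array, minus the gene's mean over the 12 arrays (colour, log2 units, limited to 1.5 either way). Columns are arrays ordered by title number and then by group, rows are genes grouped by role, and the 4 columns of number 1 are blue in nearly every row.

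Licensing and fork genes had a median difference of -0.79, and 12 of 12 were lower in number 1. Pcna, the sliding clamp, read 9.17, 9.21, 9.21 and 9.08 on the arrays numbered 1, in the order siCon, siCon_IFNg, siCon_IFNg_GW and siSHP_IFNg_GW. It read 9.97, 9.89, 9.97 and 9.78 in number 2 and 9.93, 9.82, 9.86 and 9.87 in number 3. The difference was -0.72 ± 0.06 (SE, limma adjusted p = 7.40e-06), and the sets did not overlap. Mcm4, a helicase subunit, read 8.42, 8.18, 8.35 and 8.32 in number 1. Its values were 9.18, 9.25, 9.27 and 9.23 in number 2, and 9.22, 9.06, 9.28 and 9.43 in number 3. All 4 arrays of number 1 were again below the rest (-0.92 ± 0.07, adjusted p = 5.42e-06). The 6 subunits of the Mcm2 to Mcm7 ring differed by unequal amounts. Mcm6 differed most, at 6.59 to 7.07 in number 1 and 7.97 to 8.34 (median 8.12) on the others (-1.38 ± 0.06, adjusted p = 4.23e-07), a 2.61-fold lower level. Mcm7 differed least (-0.28 ± 0.06, adjusted p = 0.0051), with Mcm2 (-0.46), Mcm3 (-0.52), Mcm4 and Mcm5 (-0.96) between them. The Mcm7 difference did not pass without number 3 (-0.25, adjusted p = 0.066) or with arrays centred on their medians (-0.19, adjusted p = 0.052). Differences between subunits were not tested. Mcm10, which joins the helicase at firing, was also lower (-1.17 ± 0.09). Cdc6 (-1.02), Cdc45 (-0.86) and Cdt1 (-0.57), which load or activate the helicase, followed. Cdc6 read 5.29 to 5.42 in number 1, with 3 values under background. Gins2, a subunit of the GINS complex that travels with the helicase, was the smallest passing difference (-0.20 ± 0.07, adjusted p = 0.041), with overlapping sets. It did not pass after centring (-0.10, adjusted p = 0.24) or in 12 of 14 fits that left out an array or a number.

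Both measured genes of nucleotide supply were lower in number 1. Rrm2, the S phase subunit of ribonucleotide reductase, had the largest difference of the list. It read 8.83, 8.53, 7.85 and 8.31 in number 1, in the same group order, then 10.05, 9.90, 9.96 and 9.69 in number 2 and 9.97, 9.78, 9.94 and 9.88 in number 3. The mean of 8.38 against 9.90 made a 2.86-fold lower level (-1.52 ± 0.13, limma adjusted p = 1.08e-05). Tyms, thymidylate synthase, read 8.69, 8.38, 8.14 and 8.46 in number 1. It read 9.24, 9.07, 9.08 and 8.87 in number 2 and 9.24, 9.05, 9.10 and 9.06 in number 3 (-0.67 ± 0.08, adjusted p = 7.94e-05). For both genes the array with interferon-γ and GW was the lowest of number 1.

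Among the regulators of the G1 to S transition 5 of 6 were lower (median -0.57). Cdk2, the kinase that cyclin E binds, read 7.42, 7.40, 7.25 and 7.60 in number 1. In number 2 it read 8.03, 7.87, 7.84 and 7.86, and in number 3 it read 7.93, 7.77, 7.96 and 7.96 (-0.49 ± 0.07, limma adjusted p = 0.00038). Uhrf1, which carries DNA methylation through replication, read 7.23, 6.92, 7.08 and 6.87 in number 1. It read 7.63, 7.58, 7.69 and 7.59 in number 2 and 7.80, 7.61, 7.73 and 7.76 in number 3 (-0.65 ± 0.06, adjusted p = 3.13e-05). Neither gene had an array of number 1 among the levels of the others. The cyclins E, Ccne1 (-0.98) and Ccne2 (-0.85), differed more, and the transcription factor gene E2f1 less (-0.42). Cdca7 was the gene that did not pass (-0.06 ± 0.09, adjusted p = 0.66). Its levels are described by treatment further on, where only the change with interferon-γ passed in the main fit.

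Mitotic cyclins and kinases were lower in 11 of 11 cases, with a median of -1.15. Ccnb2, a cyclin B, read 9.24, 9.26, 8.91 and 9.29 in number 1, 9.78, 9.71, 9.70 and 9.51 in number 2 and 9.78, 9.72, 9.66 and 9.57 in number 3 (-0.50 ± 0.08, limma adjusted p = 0.00056). Plk1, a kinase of centrosome and spindle assembly, read 8.46, 8.11, 8.28 and 8.55 in number 1. It read 8.86, 8.73, 8.88 and 8.75 in number 2 and 8.96, 8.77, 8.79 and 8.89 in number 3 (-0.48 ± 0.07, adjusted p = 0.00040). Larger differences were found in other genes of the class. Cyclin A2, Ccna2, was at 7.09 to 7.74 in number 1 and 8.66 to 9.04 (median 8.88) on the others (-1.38 ± 0.11, 2.60-fold). Ccnb1 (-1.27), the checkpoint kinase genes Bub1 (-1.26) and Bub1b (-1.16), the chromosomal passenger kinase gene Aurkb (-1.24) and Cdk1 (-1.15) each exceeded 2-fold. Cdc20 (-0.67) and Foxm1 (-0.63), a transcription factor of mitotic genes, lay below that. Aurka, the kinase of the spindle poles, had the smallest difference of the class (-0.35 ± 0.07, adjusted p = 0.0022). Its range in number 1, 6.78 to 7.04, overlapped that of the others, 7.02 to 7.53.

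The 7 spindle and chromosome genes were all lower in number 1 (median -1.0). Mki67, which coats mitotic chromosomes and is the standard marker of cycling cells, read 8.95, 8.66, 9.0 and 9.31 in number 1. It read 10.32, 10.07, 10.34 and 10.25 in number 2 and 10.43, 10.22, 10.37 and 10.35 in number 3. Its level was 2.49-fold lower (-1.32 ± 0.08, limma adjusted p = 1.73e-06), and the highest array of number 1 stayed well under the lowest of the rest. Top2a, the topoisomerase that untangles sister chromatids, read 8.43, 8.24, 8.06 and 8.81 in number 1, 9.59, 9.50, 9.47 and 9.33 in number 2 and 9.62, 9.56, 9.55 and 9.43 in number 3 (-1.12 ± 0.12, adjusted p = 4.30e-05). The kinetochore gene Cenpf (-1.03), the spindle motor gene Kif11 (-1.0), the spindle assembly factor gene Tpx2 (-0.86), the passenger complex gene Cdca8 (-0.75) and the cytokinesis motor gene Kif20a (-0.59) completed the class. In all, 14 of the 40 genes were more than 2-fold lower, of which 6 were mitotic cyclins or kinases and 4 were spindle and chromosome genes. The share of all genes past that cutoff is not given here, so the count describes the list only.

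The D cyclins, which read growth signals in G1, differed by less. Ccnd2 read 9.87, 9.92, 9.91 and 10.02 in number 1, 10.37, 10.54, 10.32 and 10.30 in number 2 and 10.36, 10.66, 10.28 and 10.26 in number 3 (-0.46 ± 0.07, limma adjusted p = 0.00058). Ccnd1 read 8.38, 8.19, 8.27 and 7.87 in number 1, 8.74, 8.50, 8.44 and 8.35 in number 2 and 8.72, 8.66, 8.44 and 8.47 in number 3 (-0.36 ± 0.07, adjusted p = 0.0020). The siCon array of number 1 overlapped the others for Ccnd1 and not for Ccnd2.

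**Figure D2:**
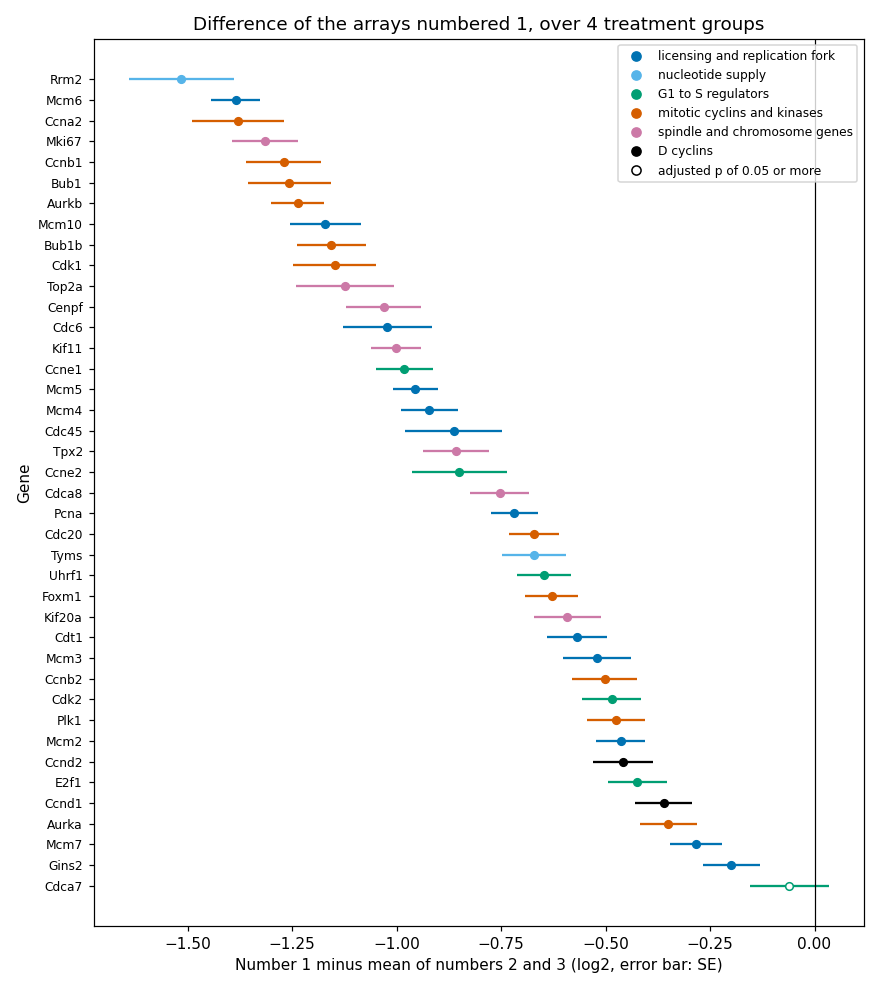
Difference between arrays numbered 1 and the mean of numbers 2 and 3 for each of the 40 genes (log2, points with SE), from the fit on group and number and coloured by role. The differences run from -1.52 for Rrm2 to -0.06 for Cdca7, the only open point.

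Numbers 2 and 3 did not separate in this way. The limma fit called 0 genes of the 40, and 0.0% of all genes, between them. At an unadjusted p under 0.05 it gave 1 of the 40 genes and 456 of all genes, and the median difference of the 40 was 0.04. Within single groups the gap of number 1 had a median of -0.78 in siCon, -0.70 in siCon_IFNg, -0.94 in siCon_IFNg_GW and -0.68 in siSHP_IFNg_GW.

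A wider list of 125 further cell cycle genes was fitted in the same way. In number 1 it had 96 genes lower and 8 higher, against 17.2% of all genes lower and 20.4% higher. The lower ones included 38 of 44 other replication genes, such as the polymerase gene Pole (-1.12 ± 0.07), and 47 of 50 other mitosis genes, such as the motors Kif2c (-1.13 ± 0.06) and Kif4a (-1.17 ± 0.07) and the centriole gene Stil (-1.02 ± 0.06). Among 22 E2F, MYB and G1 kinase genes 9 were lower and 5 higher, and the share of higher ones was near that of all genes. The higher ones included Lin37 (0.86 ± 0.08) and E2f4 (0.51 ± 0.08), named for their small p-values. Both code for parts of a complex that represses cell cycle genes. The part of that complex in the difference was not tested. Among 9 cyclin kinase inhibitors and pocket proteins 3 were higher and 2 lower. The pocket proteins that can join this complex went opposite ways, Rbl2 higher (0.67 ± 0.07, limma adjusted p = 6.40e-05) and Rbl1 lower (-0.62 ± 0.08, adjusted p = 0.00018). Cdkn1a, the p53-induced inhibitor p21, was at 10.26 to 10.84 in number 1 and at 8.53 to 8.98 (median 8.83) elsewhere, a 3.36-fold higher level (1.75 ± 0.09, adjusted p = 8.79e-07). Cdkn2c, an inhibitor of the G1 kinases, was slightly lower (-0.26 ± 0.09, adjusted p = 0.042), and Cdkn1b, p27, differed by 0.01 ± 0.08.

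Some markers of astrocytes and of other cell types also differed in number 1, and their counts are to be read against the 20.4% of all genes called higher and 17.2% called lower. In the limma fit, of 10 measured meningeal and vascular markers 7 were lower and 0 higher, and their summed level (log2 of the summed linear values) was 12.53 to 12.70 in number 1 against 13.20 to 13.45 elsewhere. Of 16 microglia markers 11 were higher and 1 lower (summed level 13.02 to 13.91 against 12.74 to 13.33). Of 12 astrocyte markers 3 were higher and 6 lower (13.91 to 14.14 against 14.21 to 14.38). Of 12 markers of the oligodendrocyte lineage 1 was higher and 5 lower (10.70 to 10.85 against 11.25 to 11.58), and of 13 neuron markers 1 was higher and 5 lower (12.08 to 12.27 against 12.04 to 12.31). The summed level of the 40 cell cycle genes was 12.88 to 13.09 against 13.71 to 13.89. Mean levels were above background for all astrocyte and microglia markers measured, for 7 of 10 meningeal and vascular, 11 of 12 oligodendrocyte and 8 of 13 neuron markers. The part of these markers in the cell cycle difference was not tested. Array medians over all rows were 5.51 to 5.60 in number 1 and 5.60 to 5.67 elsewhere. With each array centred on that median 37 of the 40 genes were still called lower in number 1, as were 2085 of the 18166 genes tested. Of the genes called in number 1, 54.2% were higher as deposited and 72.3% after centring.

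**Figure D3:**
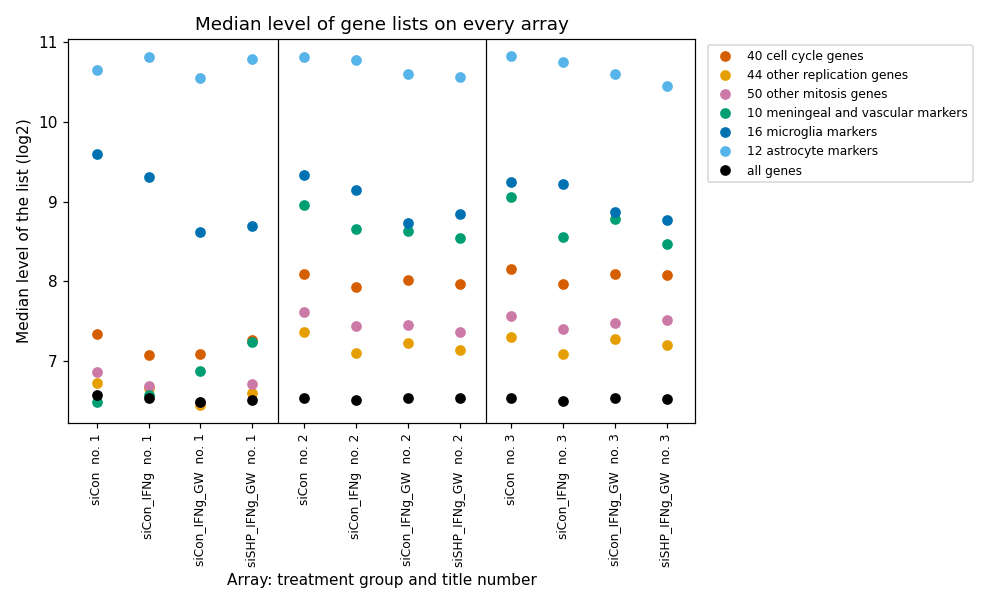
Median log2 level of each gene list on each of the 12 arrays, ordered by title number and group, with all genes in black. The cell cycle, replication and mitosis lists and the meningeal and vascular markers sit lower on the 4 arrays numbered 1, while the median of all genes is level.

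The first treatment comparison asked what interferon-γ changed in cells with control siRNA. Only Cdca7 passed among the 40 genes, and it fell. It read 5.94, 6.40 and 6.36 in siCon, in the order of numbers 1 to 3, and 5.52, 5.27 and 5.41 in siCon_IFNg. The groups did not overlap, and the change was -0.84 ± 0.13 (SE, limma adjusted p = 0.038). One gene of 40 compares with 0.0385% of all genes called lower. Without number 1 the change was -1.04 (adjusted p = 0.00044), where 1.66% of all genes were called lower. The call was lost in the fit on the 2 groups alone and when any single array numbered 2 or 3 of these groups was left out. In those leave-outs the change was -0.75 to -0.84. The value of 5.27 was the one array of Cdca7 below background.

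The other 39 genes did not pass with interferon-γ, and their changes were small and mostly below 0. In all 39 of 40 genes had a negative mean change, as did 59.9% of all genes, and the median was -0.17 against -0.03. Within number 1, 2 and 3 the medians were -0.23, -0.12 and -0.17, with 34, 36 and 36 genes below 0. For 29 of 40 genes (72.5%) the interferon-γ array was lower in all 3 numbers, as for 22.8% of all genes. Bub1b had the largest change after Cdca7 (-0.35 ± 0.48). Its change was -0.35 ± 0.11 with title number as a block and did not pass there either (adjusted p = 0.22). The wider list had 109 of 125 genes below 0 and a median of -0.15, with 0 called by limma. At an unadjusted p under 0.05 it had 4, and the share of all genes at that threshold is not given here. Cdkn1a differed by 0.03 ± 0.72. Ccnd2 was the only one of the 40 with a positive mean change (0.18 ± 0.21). It read 9.87, 10.37 and 10.36 in siCon and 9.92, 10.54 and 10.66 in siCon_IFNg, a higher level in each number, with overlapping groups.

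The gap between number 1 and the others is part of the spread within each group in these fits. The SE of a treatment change had a median of 0.34 over the 40 genes. With title number as a block it was 0.09. By contrast the SE of the number 1 difference had a median of 0.07.

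The second comparison asked what adding GW to interferon-γ changed. It shares the siCon_IFNg arrays with the first, so that a chance high or low value there enters both with opposite sign. The limma fit called 0 of the 40 genes and 0.886% of all genes. At an unadjusted p under 0.05 it gave 1 of the 40 genes (Cdca7), and the share of all genes at that threshold is not given here. The median change was 0.04, with 25 genes above 0, as were 50.8% of all genes. With title number as a block 4 of 40 genes (10%) rose, Cdca7, Cdt1, Mcm10 and Aurka, against 3.64% of all genes called higher in that fit. Cdca7 read 5.52, 5.27 and 5.41 with interferon-γ and 5.86, 5.94 and 5.93 with interferon-γ and GW. In each number the level with GW lay above that with interferon-γ alone and below that of siCon. Its change was 0.51 ± 0.12 with the block (adjusted p = 0.041, and 0.11 without the block). Mcm10 read 5.60, 6.71 and 6.80 and then 5.92, 7.35 and 7.21, a higher level in each number (0.45 ± 0.11, adjusted p = 0.044, and 0.84 without the block). Aurka read 6.78, 7.02 and 7.03 and then 7.02, 7.40 and 7.53 (0.38 ± 0.09, adjusted p = 0.038, and 0.45 without the block). Cdt1, the licensing factor, read 6.11, 6.69 and 6.87 and then 6.61, 7.20 and 7.12 (0.42 ± 0.09, adjusted p = 0.029, and 0.60 without the block). All 4 genes were higher with GW in each of the 3 numbers. The block fit that picked them favours such genes, so this adds no separate support.

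Without number 1 the GW fit called 5 of 40 genes (12.5%), near the 11.5% of all genes called there. Cdc6 (0.58, limma adjusted p = 0.025), Cdca7, Mcm10 and Aurka rose and Ccnd2 fell (-0.30, adjusted p = 0.048). Cdt1 did not pass in that fit (0.39, adjusted p = 0.068). Ccnd2 read 9.92, 10.54 and 10.66 with interferon-γ and 9.91, 10.32 and 10.28 with GW added. Of the wider list 0 genes passed over all arrays, with 6 at an unadjusted p under 0.05, where no share of all genes is given. With the block 9 of 125 rose and 0 fell. Without number 1, 18 rose and 0 fell, where 6.47% of all genes were called higher. Microglia markers moved with GW as well. With the block 10 of 16 fell and 0 rose, against 2.91% of all genes called lower, none passed without it, and their median change was -0.44. The part of these markers in the changes with GW was not tested.

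**Figure D4:**
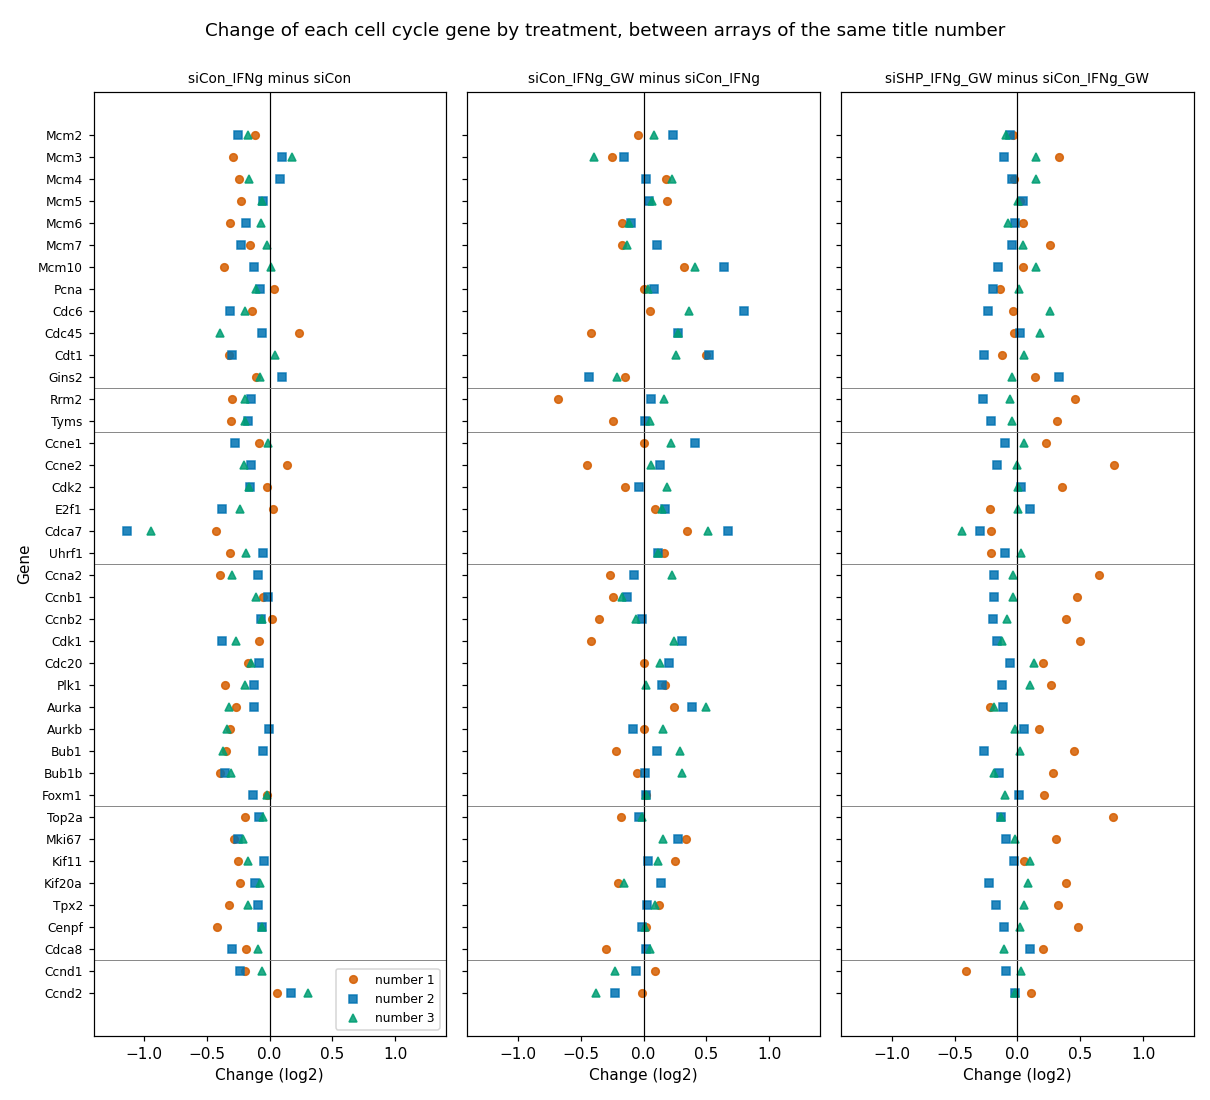
Change of each of the 40 genes (log2) for the 3 treatment comparisons, between arrays with the same title number, with 1 point per number and genes grouped by role. Most points of the interferon-γ panel lie below 0, Cdca7 farthest, and in the SHP siRNA panel the points of number 1 lie mostly to the right of the others.

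The third comparison asked what SHP siRNA changed in cells with interferon-γ and GW. Nr0b2, the targeted gene, read 4.82, 5.05 and 5.01 in siCon, 4.72, 5.09 and 4.59 in siCon_IFNg, 4.70, 4.78 and 4.91 in siCon_IFNg_GW and 5.12, 4.94 and 4.81 in siSHP_IFNg_GW. Every value lay below the background of 5.34, so the arrays give no reading of the knockdown. The limma fit called 0 of the 40 genes and 0.0% of all genes. At an unadjusted p under 0.05 it gave 1 of the 40 genes and 416 of all genes. That gene was Cdca7, which read 5.65, 5.64 and 5.48 with SHP siRNA and was lower in each number than with control siRNA (-0.32 ± 0.13). The median change of the 40 genes was 0.05, with 29 above 0, against 42.7% of all genes. Without number 1 it was -0.04, with 28 below 0, against 59.7% of all genes below 0.

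**Figure D5:**
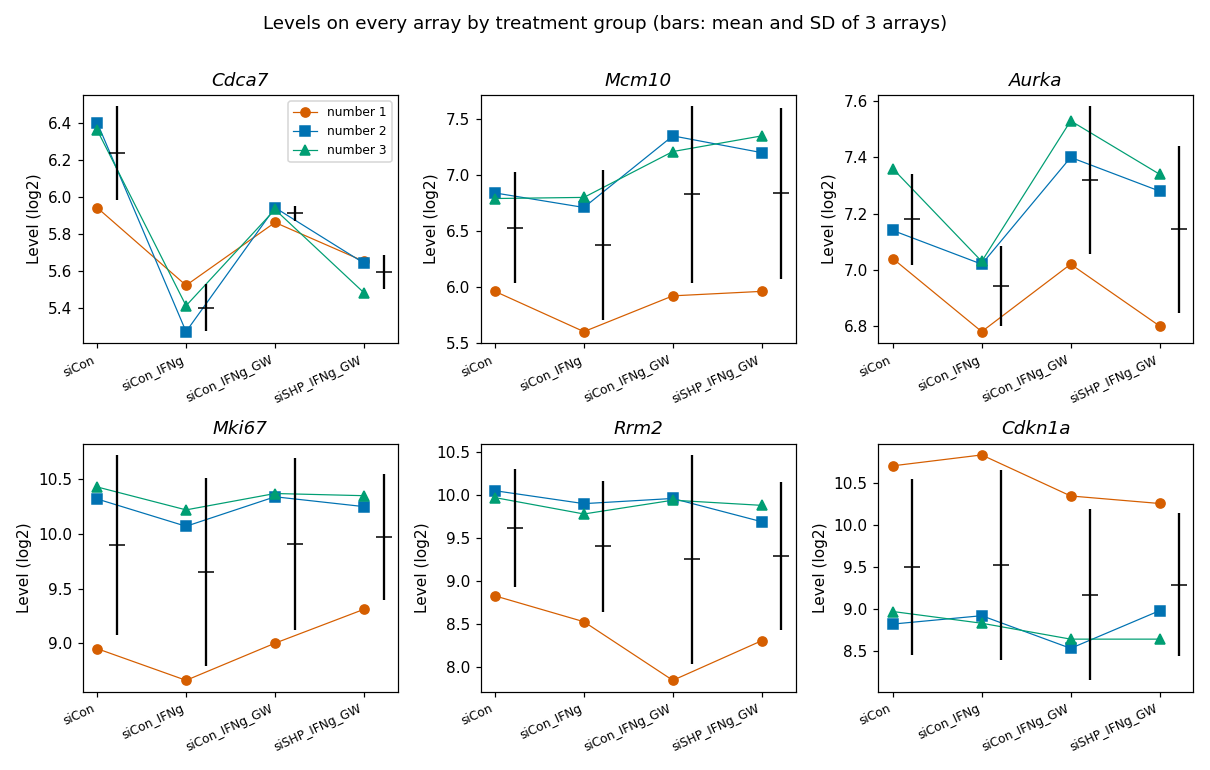
Log2 level of 6 genes on every array by treatment group, with points joined within a title number and bars for the mean and SD of the 3 arrays of a group. In each number Cdca7 is highest in siCon and lowest in siCon_IFNg, and only its change with interferon-γ passed in the main fit. Mki67 and Rrm2 are lower and Cdkn1a is higher on all 4 arrays numbered 1.

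The direction with SHP siRNA differed between numbers. In number 1 the median change was 0.21 with 11 of 40 genes below 0, in number 2 it was -0.11 with 32 below 0, and in number 3 it was 0.00 with 19 below 0. Of all genes 52.0%, 56.6% and 57.7% were below 0 in turn. The mitotic cyclins and kinases had medians of 0.29, -0.15 and -0.04 in turn, and the spindle and chromosome genes 0.32, -0.11 and 0.02. The licensing and fork genes had medians of -0.01, -0.05 and 0.05, with 6 of 12 below 0 in number 1. The G1 to S regulators had medians of 0.01, -0.10 and 0.00, the genes of nucleotide supply 0.39, -0.24 and -0.05, and the D cyclins -0.15, -0.06 and 0.00. Of the 50 other mitosis genes 1 was below 0 in number 1, 47 in number 2 and 33 in number 3. Of the 44 other replication genes these counts were 17, 34 and 29. Each of these rests on 1 array against 1. A limma fit with separate changes for number 1 tested the differences, taking its spread from numbers 2 and 3. It called Top2a for SHP siRNA, and 0.721% of all genes. The difference was 0.89 ± 0.14 (adjusted p = 0.040). For GW it called Cdk1 (-0.69 ± 0.13, adjusted p = 0.037) and Rrm2 (-0.79 ± 0.16, adjusted p = 0.047), and 3.02% of all genes. None of these 3 genes passed when any single array numbered 2 or 3 of the compared groups was left out. For interferon-γ the fit called 0 of the 40 genes and 2.43% of all genes, with 3 of the 40 and 2229 of all genes at an unadjusted p under 0.05. The siCon_IFNg_GW array of number 1 enters the GW and SHP siRNA differences with opposite sign. Rrm2 at 7.85, Cdk1 at 6.62 and Top2a at 8.06 had their lowest value of all 12 arrays there. These genes were picked by fits that use this array, so a low value there follows in part from the choice. The median of the 40 genes was 7.09 on it and 7.08 on the siCon_IFNg array of number 1. Their summed level was 12.88 on it, the lowest of all 12 arrays, and 12.93 on the siCon_IFNg array. Medians of the other mitosis genes were 6.485 and 6.688 on these arrays, and those of the other replication genes 6.45 and 6.664. The median of the spindle and chromosome genes went slightly the other way, at 7.151 and 7.135. The part of this array in the differences between numbers was not tested.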

How the data were processed

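RNA was extracted with Trizol and biotin-labelled sense cDNA was hybridised to whole-transcript arrays, per the labels' protocols. The authors deposited 1 value per transcript cluster and array, read here as log2 because values run from 1.01 to 13.43. Background correction, summarisation and normalization are not given in the sources used here. Of 36685 rows, 18511 were paired with 1 gene in the platform annotation, 575 with several and 17599 with none. Rows with 1 gene were used, taking the row with the highest mean for 291 genes with more than 1, which left 18166 genes. Symbols of 18394 rows matched RefSeq on GRCr8 and 0 changed.

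No further normalization was applied. limma 3.58.1 in R 4.3.3 was fitted to all 12 arrays over all genes, with Benjamini-Hochberg adjustment and a threshold of 0.05. Treatments were compared on 4 group means, title numbers on group plus number, and differences between numbers on separate means for number 1. The precision is limited by 3 arrays in a group. The fits were also run on simulated data with noise drawn independently for each array. The treatment fits of that run carried no gap of number 1. The members and lists were chosen with earlier results of these data known. All measured members are named. Values on every array are given for the 2 best expressed members of each role and members called in a treatment comparison, and those of Mcm10, Aurka and Cdt1 after their values were seen. Of the wider list at most 4 called genes per direction are named in the comparison of number 1, with Cdkn1a, Cdkn1b and Cdkn2c, and Rbl1 was named after its value was seen. A summed level is the log2 of the sum of linear values over a list. Figures were drawn with matplotlib 3.10.9.

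Numbers come from the sample titles. Arrays sharing a number were read as pairs on the strength of the titles. Their deviations from the group mean were correlated. In number 1 the coefficients lay between 0.63 and 0.77. Those of number 2 lay between 0.48 and 0.58, and those of number 3 between 0.43 and 0.55. Each group mean includes an array of number 1, so the gap of number 1 alone can make the other deviations correlate. These coefficients therefore cannot show whether arrays of number 2, or of number 3, belong together. The fit called 0 genes between these numbers, and their pairing is an assumption. Alternatives were the title number as a block, leaving out arrays, centring, a filter on dim genes, mean rows, 2-group fits and an intensity trend.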

Additional observations from a re-analysis of the deposited data

Results flagged for a closer look

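Top2a, the topoisomerase of sister chromatids, differed between title numbers in its change with SHP siRNA. The change was 0.76 in number 1 and -0.13 in numbers 2 and 3, and the tested difference was 0.89 ± 0.14 (SE, limma adjusted p = 0.040). Cdk1, the mitotic kinase, differed in its change with GW, which was -0.41 in number 1 and 0.27 in the others (difference -0.69 ± 0.13, adjusted p = 0.037). Rrm2, of ribonucleotide reductase, differed in the same comparison, at -0.68 in number 1 and 0.11 in the others (difference -0.79 ± 0.16, adjusted p = 0.047). Number 1 has 1 array per group, so its own spread is assumed to equal that of the others. None of the 3 differences passed when any 1 array numbered 2 or 3 of the compared groups was left out.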

How the results depend on the processing

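In number 1 the genes called numbered 4348 to 6672 over the leave-outs, against 6824 with all arrays. Cdca7 changed sign there in 2 settings, below the threshold. Of the members called there, Gins2 and Mcm7 lost the call in some settings, as given above. For interferon-γ the 22 genes called became 170 with the replicate block, 7 in the 2-group fit and 0 to 856 over the leave-outs, and the 1 member called became 0 in the 2-group fit and 0 to 1 over the leave-outs. For GW the 161 genes became 1189 with the replicate block, 79 after centring, 4 in the 2-group fit and 0 to 2081 over the leave-outs. Its 0 members became 4 with the replicate block and 0 to 5 over the leave-outs. For SHP siRNA the 0 genes became 0 to 267 over the leave-outs, the highest without number 1. Differences between numbers moved too. With genes above background only, 1 member was called for interferon-γ in place of 0, 3 for GW in place of 2 and 3 for SHP siRNA in place of 1. With an intensity trend 7 were called for SHP siRNA. Calls over all genes were not counted with this filter or trend, so these member counts have no share to be read against. Over the leave-outs 0 were called for GW or SHP siRNA. The causes were not tested. The replicate block changed no call of a member other than those given for GW.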
